A study of Mus musculus with 6 samples.

Results

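The genes described here encode the proteins of the mouse cytosolic ribosome. They were taken from 6 two-colour oligonucleotide arrays as every non-control probe whose RefSeq accession maps to a symbol of Rpl or Rps followed by a number, to Rplp or to Rpsa, without Rpl39l and the S6 kinases. The rule found 131 of 41006 probes and 73 of 35786 tested genes. Of these, 37 encode large subunit proteins and 30 encode small subunit proteins. The remaining 6 were kept apart: the paralogs Rpl3l, Rpl7l1, Rpl22l1, Rpl36al and Rps27l, and Rps19bp1, which encodes a protein that binds Rps19. All 73 passed the filter on dim probes. Rpl4, Rpl5, Rpl10a, Rpl12, Rpl17, Rpl23a, Rpl32, Rpl34 and Rps15a are among the genes not analysed here.

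Each of 3 mouse cell types was run on 2 arrays. Multipotent adult progenitor cells (MAPC) are adherent cells cultured from bone marrow. Here the marrow culture lost its CD45+ and Ter119+ blood cells at 4 weeks, and the remainder was seeded in wells at a density of 10 cells. The labels describe both MAPC arrays by the same clone, which was high in Oct4 and past 80 population doublings. Its medium held 2% serum, the growth factors EGF and PDGF and the cytokine LIF, in 5% oxygen. The embryonic stem cells (ESC) came from the strain C57BL/6 and grew in LIF and 15% serum on a layer of irradiated embryonic fibroblasts, which was omitted in the last plating before RNA was taken. The neurospheres (NS) are neural progenitors that grow as floating balls. They were derived at E11.5 from forebrains of C57BL/6 embryos and expanded with bFGF and EGF. Every sample was labelled with Cy3 and hybridized against a Cy5-labelled pool of RNA from 11 mouse cell lines, with no dye swap. Values are log2 ratios of sample to that pool. The effect of cell type cannot be told apart from that of culture, and p-values measure the spread between 2 arrays per group, which for MAPC come from 1 clone. In RNA from whole cultures, fewer cells expressing a gene and less RNA per cell cannot be told apart.

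The cytosolic ribosome joins a small subunit, which reads the messenger RNA, to a large subunit, which forms the peptide bond. Most of its proteins are needed in equal numbers, and their messenger RNAs are among the most abundant in dividing cells. Many of them begin with a run of pyrimidines through which mTOR signalling controls their translation. A few proteins have paralogs that replace or accompany them in some tissues.

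The 60-base probes below belong to genes on which the comparisons turn: the paralog Rpl22l1 and the large subunit gene Rpl37a, which had lower values in MAPC than in ESC and NS, the X-linked Rps4x, and the pair Rps27 and Rps27l, whose differences had opposite signs. In the order printed, RefSeq places the genes on chromosomes 3, 1, X, 3 and 9. The sequences are given as deposited, 5′ to 3′, with nothing marked.
Rpl22l1: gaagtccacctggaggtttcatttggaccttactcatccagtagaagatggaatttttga
Rpl37a: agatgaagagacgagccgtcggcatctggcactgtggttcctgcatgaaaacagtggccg
Rps4x: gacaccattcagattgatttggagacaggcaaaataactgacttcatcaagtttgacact
Rps27: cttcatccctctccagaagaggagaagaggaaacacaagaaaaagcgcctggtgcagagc
Rps27l: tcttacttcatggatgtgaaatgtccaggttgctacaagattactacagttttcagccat
The probes of Rps27 and Rps27l share no run longer than 6 bases. For the other paralog pairs on the array (Rpl3 and Rpl3l, Rpl7 and Rpl7l1, Rpl22 and Rpl22l1, Rpl36a and Rpl36al) the longest shared run is 6 or 7 bases. These runs set probe against probe, so that binding of a probe to the paralog's message was not tested. Processed copies of ribosomal protein genes elsewhere in the genome could bind some of the probes, and their part was not tested.

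Of 4 measured endoderm and MAPC markers, all 4 were higher in MAPC than in ESC and in NS, among them Sox17, an endoderm transcription factor, at 5.31 and 5.32 in MAPC, -0.11 and -0.13 in ESC, and -0.38 and -0.32 in NS. Pou5f1, the gene of Oct4, stood at 0.90 and 1.33 in MAPC, 3.38 and 2.90 in ESC, and -0.25 and -0.29 in NS. The 6 measured pluripotency markers were all lower in MAPC than in ESC, with a median log2 ratio of -0.04 and -0.02 in MAPC, against 3.20 and 2.93 in ESC. Zfp42, among these 6, was far above that median in MAPC, at 3.41 and 3.24, against 4.38 and 4.23 in ESC. The 6 neural progenitor markers were all lower in MAPC than in NS, with a median of -0.17 and -0.16 in MAPC, against 4.16 and 4.06 in NS. Of 8 measured markers of the fibroblasts that had fed the ESC, 7 were lower in MAPC than in ESC. In ESC against NS 6 were higher and 1, Lum, was lower (-1.06). Their median log2 ratio was -2.81 and -2.93 in MAPC, -0.03 and -0.15 in ESC, and -1.53 and -1.48 in NS. Their part in the differences below was not tested.

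Many of these probes were brighter than the scanner could read. On each array 77 to 82 of the 131 probes were marked saturated in the reference channel, out of 239 to 284 saturated reference spots in all. In the sample channel 25 and 21 were saturated in MAPC, 31 and 31 in ESC, and 14 and 17 in NS, out of 32 to 78 on an array. For 48 of the 73 genes the reference was saturated on all 6 arrays, so that their log2 ratio is taken against a ceiling and differences between cell types rest on the sample channel and on the normalization. The sample channel was below saturation on all 6 arrays for 51 genes, saturated on 1 to 5 arrays for 13, and saturated on all 6 for 9. These counts of genes are for the brightest probe of each gene.

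The 9 genes at the ceiling throughout were Rplp0 and Rplp1, which form the stalk that recruits elongation factors, the large subunit genes Rpl7a and Rpl13, and the small subunit genes Rps2, Rps10, Rps23, Rps29 and Rpsa, the last also known as the laminin receptor. Their sample intensity reached 65517 on every array and was no lower than 65002 for any of them, and their log2 ratio before normalization lay between -0.01 and 0.00. Loess normalization, which centres the ratios separately at each brightness, then gave all 9 a median value of 0.42 and 0.67 in MAPC, 0.46 and 0.55 in ESC, and 0.84 and 0.83 in NS. From these constants follow differences of 0.04 between MAPC and ESC, -0.29 between MAPC and NS and -0.33 between ESC and NS. In limma's fit all 9 passed the threshold in both comparisons with NS, at adjusted p = 0.0258 for Rpsa in MAPC against NS and 0.0169 in ESC against NS. These differences are set by the normalization, and no fold can be given from the brightest probes of these 9 genes. Under median centring the ESC minus NS difference of those probes for Rpsa, Rps29 and Rpl7a was 0.03. Dimmer probes of Rpsa, Rpl7a, Rps2 and Rplp0 were saturated in neither dye. Their ESC minus NS differences were -0.22 and -0.17 for Rpsa, 0.12 and 0.14 for Rpl7a, -0.03 for Rps2 and 0.47 for Rplp0. In MAPC minus NS they were -0.22 and -0.19, -0.05 and 0.01, -0.06 and 0.23 in that order. Only those of Rpsa and Rplp0 passed the threshold with loess.

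**Figure D1:**
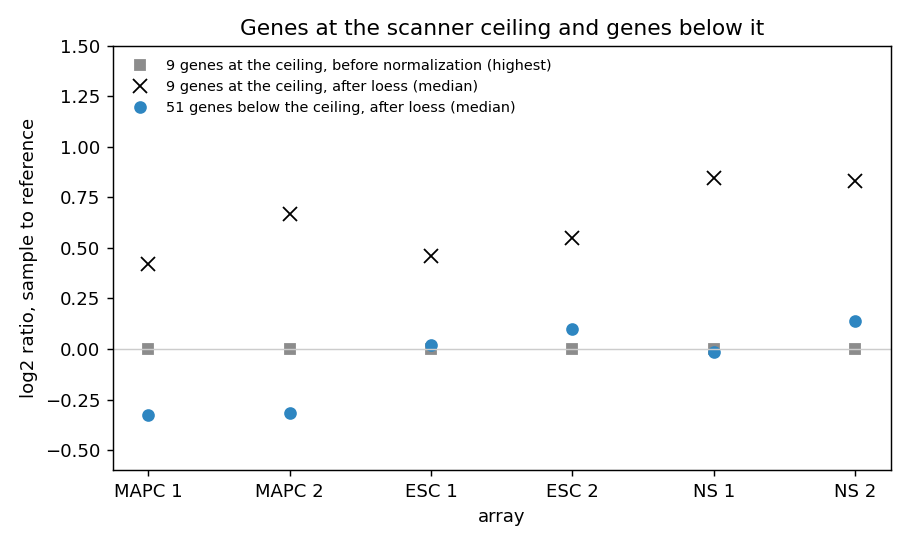
Log2 ratio of sample to reference (y axis) on each of the 6 arrays (x axis) for the 9 genes at the scanner ceiling, before normalization and after loess, and the median of the 51 genes below the ceiling. The genes at the ceiling sit between -0.01 and 0.00 before loess and between 0.42 and 0.84 after it, highest in NS.

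For genes whose brightest probe was saturated on both arrays of a group and not on both of the other, it gives only a bound. Rpl24, a large subunit protein at the face between the subunits, had log2 ratios of 0.20 and 0.30 in MAPC against 0.45 and 0.54 in ESC, where it was saturated, and was at least 1.19-fold higher in ESC (limma adjusted p = 0.0132). The sample channel alone gave its difference no call (adjusted p = 0.118). A dimmer Rpl24 probe, saturated in neither dye, was lower in MAPC than in ESC (-0.52, limma adjusted p = 0.00140). Against NS that probe was also lower in MAPC (-0.43, adjusted p = 0.00329). The bounds for Rps14 and Rps18 in MAPC against ESC were 1.08-fold and 1.04-fold, higher in ESC, and did not pass the test. Their dimmer probes were below saturation in the sample channel but not in the reference. Both were called lower in MAPC than in ESC (-0.31 and -0.24, limma adjusted p = 0.0208 and 0.0189). Rpl29, a basic large subunit protein, was saturated on both ESC arrays, both NS arrays and 1 MAPC array, so that no bound holds for it. Its sample intensity was 65173 and 62174 in MAPC, 65515 and 65517 in ESC, and 64824 and 65517 in NS. The Rpl29 probes saturated in neither dye gave -0.21, -0.24, -0.28 and -0.28 in MAPC minus ESC. No bound held either for Rps9 in MAPC against ESC. For Rpl6, Rpl8, Rpl27, Rpl27a, Rps20 and Rps21, saturated in MAPC and ESC but not in NS, the bound against NS was below 1 and no fold is given. Dimmer Rpl27a probes, saturated in neither dye, differed in sign. They gave 0.18 and -0.25 in MAPC minus NS, and 0.06 and -0.18 in ESC minus NS. No fold is given either for Rpl24, Rps9, Rps14 and Rps18 in ESC against NS. Of the 13 genes saturated on some arrays, loess nevertheless called 6 lower in MAPC and 5 lower in ESC than in NS.

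Ribosomal protein genes were slightly lower in MAPC than in ESC, in both subunits. Of the 73 genes, 34 fell and 3 rose (limma, adjusted p under 0.05), where 22.1% of all tested genes were called lower and 16.0% higher (38.1% in either direction). The median difference was -0.21 over all members, -0.23 over the large and -0.17 over the small subunit, beside 0.01 over all tested genes. Between the arrays numbered 1 it was -0.15 and between those numbered 2 it was -0.24. The median stayed below 0 in all 22 alternative settings run for this comparison, between -0.31 and -0.14. Of the 51 genes below saturation in the sample channel 33 fell and 3 rose, with a median of -0.29. Of the 23 genes below saturation in both dyes 15 fell and 3 rose, with a median of -0.32. Leaving out MAPC replicate 2 or ESC replicate 2 lowered the 34 to 24, and the sample channel alone to 18. The 3 genes called higher became 0 without MAPC replicate 1, 2 without MAPC replicate 2 and 1 without either ESC array.

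Other scalings of the arrays bear on these counts. Median centring moves each array by a single constant in place of the loess curve, and the sample channel alone sets Cy3 intensities side by side after quantile normalization, without the reference. Under loess and under both of these, the same 18 genes of the 73 were called lower in MAPC than in ESC, where 12.3% of all tested genes were. They comprised 8 large subunit genes (Rpl7, Rpl13a, Rpl15, Rpl22, Rpl26, Rpl28, Rpl36a and Rpl37a), 7 small subunit genes (among them Rps3a1, Rps4x, Rps12, Rps26 and Rps27) and the paralogs Rpl3l, Rpl7l1 and Rpl22l1. No member was called higher under all 3, where 9.88% of all tested genes were. Rpl7, a large subunit protein, had log2 ratios of -0.93 and -0.92 in MAPC, against -0.51 and -0.33 in ESC. It fell by 0.50 ± 0.08 (SE, adjusted p = 0.00212). The arrays of MAPC and ESC did not overlap for this gene.

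Between MAPC and NS the direction of the family depended on the scaling. With loess, 46 of the 73 genes fell and 7 rose, where 22.6% of all tested genes were called lower and 21.2% higher (43.8% in either direction), and the median was -0.29 in all members and in each subunit, against 0.03 over all tested genes. Under median centring 6 fell and 12 rose, and the median was 0.10. In the sample channel alone 11 fell and 5 rose, with a median of -0.07. The loess medians between same-numbered arrays were -0.27 for number 1 and -0.20 for number 2. Of the 46 genes called lower, 9 were at the ceiling on all 6 arrays. Among the 23 genes below saturation in both dyes, loess called 11 lower and 6 higher, with a median of -0.16. Leaving out MAPC replicate 1 or NS replicate 1 lowered the 46 to 29, and leaving out NS replicate 2 lowered it to 21. Without NS replicate 2 the 7 genes called higher became 4.

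Called under all 3 scalings were 4 members lower in MAPC than in NS (Rpl22, Rpl22l1, Rpl36a and Rpl37a), where 14.5% of all tested genes were, and 5 higher (Rpl36al, Rpl38, Rpl7l1, Rps19bp1 and Rps27l), where 12.5% were. Rps4x, a small subunit protein encoded on the X chromosome, had log2 ratios of -0.45 and -0.52 in MAPC, against -0.02 and 0.15 in NS. It fell by 0.55 ± 0.07 with loess (adjusted p = 0.000317), whereas under median centring its difference was -0.21 (adjusted p = 0.131). Rps12, a small subunit protein, stood at -0.33 and -0.35 in MAPC, against -0.00 and 0.28 in NS, and fell by 0.48 ± 0.10 with loess (adjusted p = 0.00446). Under median centring that difference was -0.13 (adjusted p = 0.468). A dimmer Rps12 probe, saturated in neither dye, gave -0.20 in MAPC minus NS with loess (limma adjusted p = 0.0475).

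Between ESC and NS the sign of the family's median also turned with the scaling. With loess, 17 of the 73 genes fell and 8 rose, where 18.4% of all tested genes were called lower and 19.8% higher (38.2% in either direction), and 9 of those 17 were at the ceiling on all 6 arrays. The median was -0.07 (large subunit -0.03, small subunit -0.13), against 0.01 over all tested genes. Under median centring it was 0.24, with 28 higher and 2 lower, and in the sample channel alone it was 0.03, with 6 higher and 1 lower. Between same-numbered arrays the loess medians were -0.07 for number 1 and -0.08 for number 2. Without ESC replicate 1 the 17 became 3, without NS replicate 1 they became 5 and without NS replicate 2 they became 2. The 8 called higher became 4 without NS replicate 1, 5 without ESC replicate 2 and 5 without NS replicate 2. Called under all 3 scalings were Rpl22, which was lower, where 12.2% of all tested genes were, and 5 genes that were higher (Rpl15, Rpl36al, Rpl38, Rpl7l1 and Rps19bp1), where 11.6% were. Rpl9, a large subunit protein at the base of the stalk, stood at 0.65 and 0.76 in ESC, against 0.40 and 0.41 in NS. It rose by 0.30 ± 0.07 (adjusted p = 0.0113), and lost the call in the sample channel alone (adjusted p = 0.113) and without ESC replicate 2, NS replicate 1 or NS replicate 2 (adjusted p between 0.0538 and 0.0632).

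**Figure D2:**
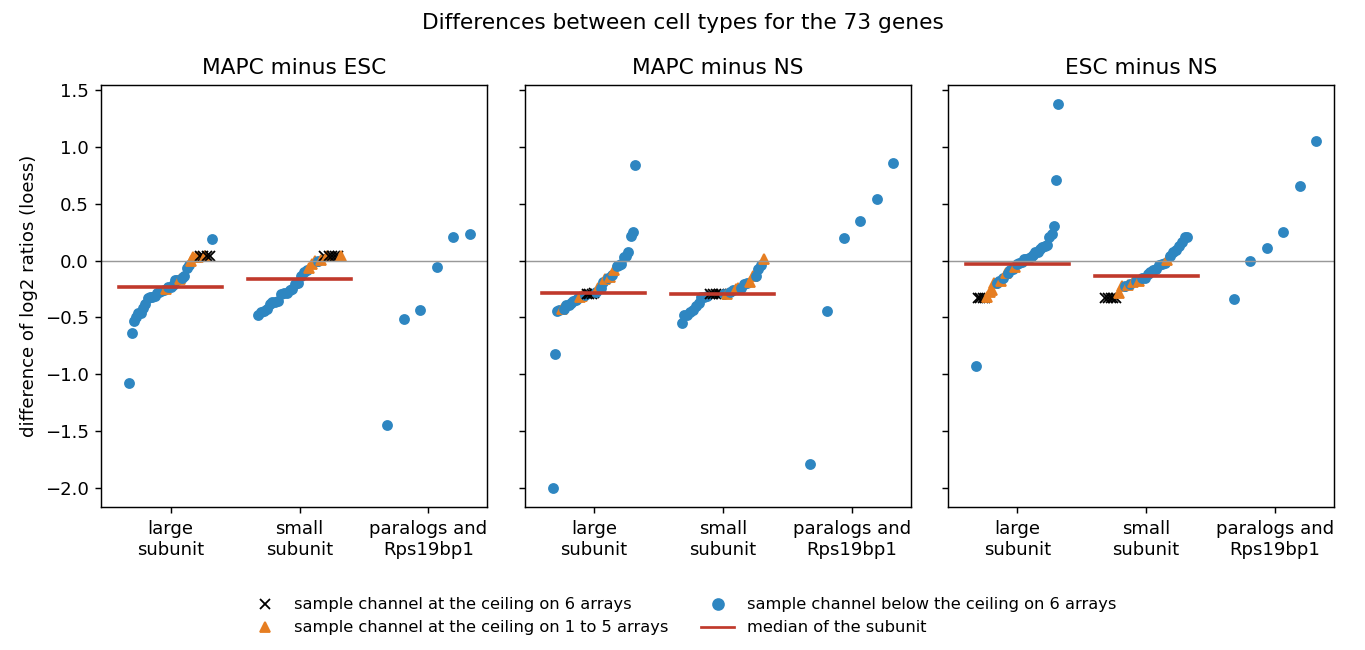
Difference of log2 ratios after loess (y axis) for each of the 73 genes in the 3 comparisons, by subunit (x axis), with symbols for saturation in the sample channel and a red line at each subunit's median. Most genes lie below 0 in MAPC minus ESC, while the loess shift below 0 in MAPC minus NS (median -0.29) turned to 0.10 under median centring and that in ESC minus NS (-0.07) turned to 0.24, or to 0.03 in the sample channel alone.

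In both comparisons of MAPC, the largest differences in the family belonged to Rpl22 and its paralog Rpl22l1. Rpl22 encodes an RNA-binding large subunit protein that mice need for the development of alpha-beta T cells, and in mice its loss is known to raise Rpl22l1. Rpl22 had log2 ratios of -1.78 and -1.61 in MAPC, -0.55 and -0.69 in ESC, and 0.31 and 0.30 in NS. The 3 cell types did not overlap, and neither dye was saturated. MAPC was at 0.474 of the ESC level (log2 difference -1.08 ± 0.07, SE, adjusted p = 1.55e-05) and at 0.250 of the NS level (-2.00 ± 0.07, adjusted p = 3.62e-07). ESC was at 0.527 of the NS level (-0.92 ± 0.07, adjusted p = 3.29e-05).

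Rpl22l1 stood at -0.65 and -0.82 in MAPC, 0.65 and 0.78 in ESC, and 1.04 and 1.07 in NS. Here too MAPC was lowest and NS highest. MAPC was at 0.366 of the ESC level (-1.45 ± 0.07, adjusted p = 3.04e-06) and at 0.289 of the NS level (-1.79 ± 0.07, adjusted p = 6.51e-07). ESC was at 0.791 of the NS level (-0.34 ± 0.07, adjusted p = 0.00806), a call lost at adjusted p = 0.0572 in the sample channel alone and at adjusted p = 0.0544 when NS replicate 2 was left out. The 3 comparisons share arrays, so they are not independent of each other. In all 21 alternatives run for each gene, both stayed lower in MAPC than in ESC, with Rpl22 between -1.16 and -0.997 and Rpl22l1 between -1.54 and -1.29. Against NS, Rpl22 ran from -2.11 to -1.92 and Rpl22l1 from -1.89 to -1.61 in MAPC.

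Rpl37a, a zinc-binding large subunit protein, had log2 ratios of -1.39 and -1.19 in MAPC, -0.78 and -0.52 in ESC, and -0.56 and -0.37 in NS. It was lower in MAPC than in ESC (-0.64 ± 0.11, adjusted p = 0.00219) and than in NS (-0.83 ± 0.11, adjusted p = 0.000443). ESC and NS overlapped (-0.18 ± 0.11, adjusted p = 0.254, and 0.0291 with the replicate number as a block).

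Rpl15 and Rpl38 were highest in ESC. Rpl15, a large subunit protein mutated in some patients with Diamond-Blackfan anaemia, stood at 0.81 and 0.69 in MAPC, 1.20 and 1.23 in ESC, and 0.55 and 0.45 in NS. It was lower in MAPC than in ESC (-0.46 ± 0.07, adjusted p = 0.000862) and 1.64-fold higher in ESC than in NS (0.71 ± 0.07, adjusted p = 6.76e-05). The smaller difference between MAPC and NS (0.25 ± 0.07, adjusted p = 0.0158) was 0.09 in the sample channel alone (adjusted p = 0.561) and lost its call without MAPC replicate 1 (adjusted p = 0.0950) or NS replicate 2 (adjusted p = 0.108). Rpl38, a large subunit protein whose loss in mice alters the axial skeleton and the translation of Hox messages, stood at 0.98 and 0.97 in MAPC, 1.68 and 1.34 in ESC, and 0.15 and 0.12 in NS. It was lower in MAPC than in ESC (-0.53 ± 0.10, adjusted p = 0.00419). It was 1.79-fold higher in MAPC (adjusted p = 0.000278) and 2.60-fold higher in ESC (adjusted p = 2.04e-05) than in NS. The size of these folds varied with the processing. Over 21 alternatives the log2 difference from NS ran from 0.33 to 1.14 in MAPC and from 0.68 to 1.62 in ESC. The call between MAPC and ESC was lost in the sample channel alone (-0.38, adjusted p = 0.0581) and with the scanner software's processed signals (-0.48, adjusted p = 0.0691).

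The Rpl38 probe was dim and lies around the start of the gene. Its sample intensity was 510 and 509 in MAPC, 643 and 662 in ESC, and 471 and 484 in NS. In the RefSeq table for GRCm38.p6 it matches chr11:114668538-114668597 on the plus strand, with 42 bases before the annotated start and 18 bases after it, which are in capitals.
Rpl38: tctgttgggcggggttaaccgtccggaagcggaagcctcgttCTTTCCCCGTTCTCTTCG
A second probe that begins close to a start, 26 bases into Rpl26, had log2 ratios of 0.54 and 0.43 in MAPC, 0.84 and 0.88 in ESC, and 0.27 and 0.14 in NS. Its order of cell types was that of the Rpl38 probe, while the brighter Rpl26 probe stood at -0.54 and -0.58 in MAPC, -0.23 and -0.04 in ESC, and -0.17 and -0.08 in NS. What these dim probes measured was not tested.

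**Figure D3:**
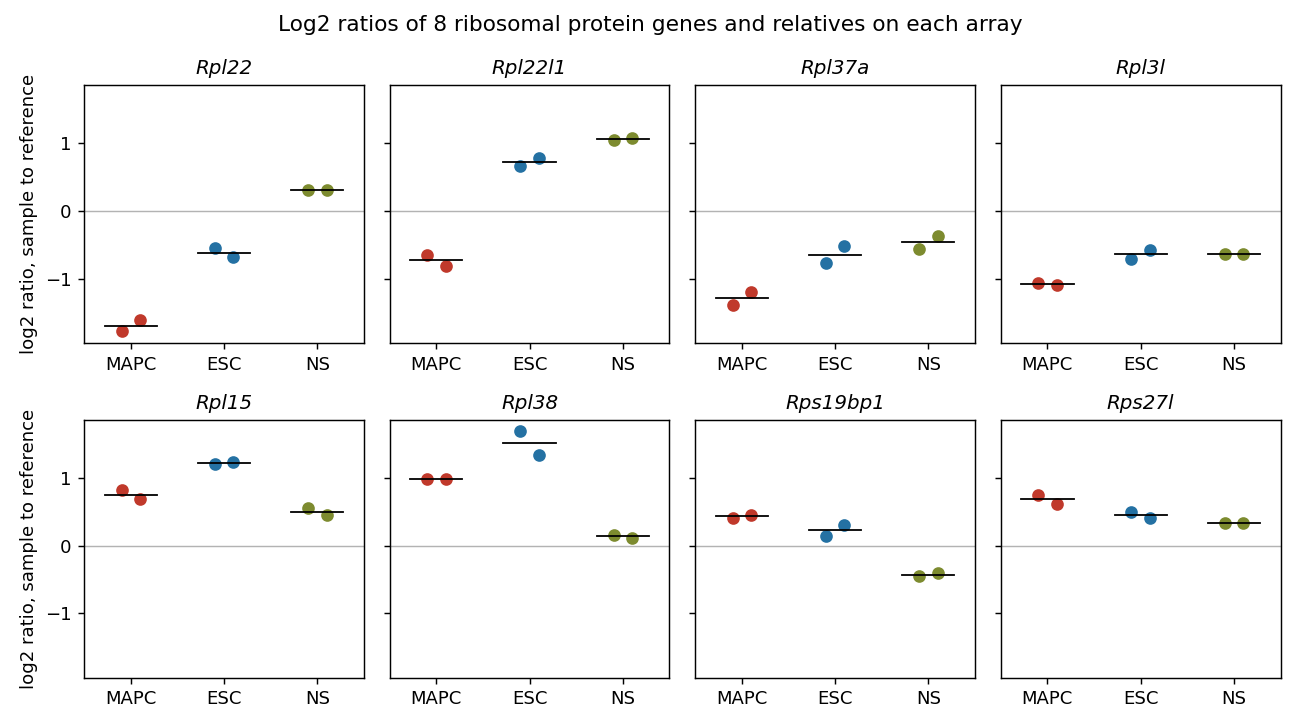
Log2 ratio of sample to reference (y axis) on each array for 8 genes, grouped by cell type (x axis). Points are arrays and lines are the means of 2 arrays. Rpl22 and Rpl22l1 are lowest in MAPC and highest in NS, while Rpl15 and Rpl38 are highest in ESC.

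Rpl3l, the heart and skeletal muscle counterpart of Rpl3, stood at -1.06 and -1.10 in MAPC, -0.71 and -0.58 in ESC, and -0.64 and -0.64 in NS. Its MAPC values were lower than those in ESC (-0.44 ± 0.06, adjusted p = 0.000721) and than in NS (-0.44 ± 0.06, adjusted p = 0.000547), the call against NS being lost in the sample channel alone (-0.20, adjusted p = 0.186). Rps27l, known in human cells as a target of p53, stood at 0.75 and 0.61 in MAPC, 0.49 and 0.40 in ESC, and 0.33 and 0.34 in NS. It was 1.27-fold higher in MAPC than in NS (adjusted p = 0.00348, and 0.0520 with the processed signals). Against ESC it was 1.18-fold higher (adjusted p = 0.0259), and that call was lost in the sample channel alone (adjusted p = 0.212), with the processed signals (adjusted p = 0.263) and without MAPC replicate 1 (adjusted p = 0.143) or ESC replicate 2 (adjusted p = 0.119). Its partner Rps27, a zinc-binding small subunit protein, had log2 ratios of -1.29 and -1.33 in MAPC, -1.04 and -0.98 in ESC, and -0.82 and -0.84 in NS, and was lower in MAPC than in ESC (-0.30 ± 0.05, adjusted p = 0.00294). Between ESC and NS the difference of Rps27l was 0.11 (adjusted p = 0.253) with loess and 0.43 (adjusted p = 0.00192) under median centring.

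Rpl7l1, which takes part in the assembly of the large subunit, was measured by a dim probe with log2 ratios of 1.88 and 1.88 in MAPC, 2.35 and 2.44 in ESC, and 1.39 and 1.29 in NS. It was lower in MAPC than in ESC (-0.51 ± 0.06, adjusted p = 0.000296), 1.46-fold higher in MAPC than in NS (adjusted p = 0.000163) and 2.08-fold higher in ESC than in NS (adjusted p = 4.85e-06). Over 21 alternatives its log2 difference from NS ran from 0.25 to 0.70 in MAPC and from 0.69 to 1.10 in ESC. Rpl36al, an intronless relative of Rpl36a, stood at -0.52 and -0.38 in MAPC, -0.40 and -0.39 in ESC, and -0.65 and -0.65 in NS. MAPC and ESC overlapped, and both were higher than NS (0.20 ± 0.06, adjusted p = 0.0344, and 0.25 ± 0.06, adjusted p = 0.0129). Both calls against NS were lost when either NS array was left out, at adjusted p between 0.0635 and 0.125. That of MAPC was also lost without MAPC replicate 2 (adjusted p = 0.189), with the processed signals (adjusted p = 0.193), with the series matrix and without saturated spots. Rps19bp1, the binding protein, stood at 0.41 and 0.45 in MAPC, 0.14 and 0.31 in ESC, and -0.45 and -0.41 in NS. It was 1.81-fold higher in MAPC (adjusted p = 2.38e-05) and 1.57-fold higher in ESC (adjusted p = 0.000139) than in NS. Its difference between MAPC and ESC (0.21 ± 0.07, adjusted p = 0.0484) lost its call in 12 of 21 alternatives.

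Among the large subunit genes, Rpl23 alone was called higher in MAPC than in ESC. Rpl23, whose free protein binds Mdm2, stood at 0.75 and 0.62 in MAPC, 0.48 and 0.51 in ESC, and 0.45 and 0.49 in NS. Its difference of 0.19 ± 0.06 against ESC (adjusted p = 0.0438) lost its call in 12 of 21 alternatives, among them the replicate block (adjusted p = 0.0514). Rpl11, the large subunit protein that forms a particle with Rpl5 and the 5S RNA, stood at 0.22 and 0.10 in MAPC, 0.40 and 0.47 in ESC, and 0.43 and 0.60 in NS. Both MAPC values lay below those of ESC (-0.27 ± 0.08, adjusted p = 0.0233) and of NS (-0.36 ± 0.08, adjusted p = 0.00600) with loess. The call against ESC was lost under median centring (-0.26, adjusted p = 0.0938) and likewise in the sample channel alone (-0.27, adjusted p = 0.112). Against NS the difference turned to 0.02 under median centring (adjusted p = 0.913) and was -0.26 in the sample channel alone (adjusted p = 0.0987). The other Rpl11 probes gave -0.04 and -0.16 against ESC with loess (limma adjusted p = 0.710 and 0.0922). Against NS they gave -0.22 and -0.23 (limma adjusted p = 0.0563 and 0.0215).

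Rps6, the small subunit protein phosphorylated by the S6 kinases, had log2 ratios of -0.01 and 0.06 in MAPC, 0.25 and 0.38 in ESC, and 0.16 and 0.27 in NS. It was lower in MAPC than in ESC (-0.29 ± 0.07, adjusted p = 0.0131), and its difference from NS was -0.19 ± 0.07 (adjusted p = 0.0587). Under median centring the first was -0.28 (adjusted p = 0.0537) and the second turned to 0.18 (adjusted p = 0.179). Without the reference, in the Cy3 channel by itself, the first was -0.24 (adjusted p = 0.107). Rplp2, the stalk protein that was below saturation, stood at 0.03 and -0.04 in MAPC, 0.02 and 0.10 in ESC, and -0.02 and -0.07 in NS, and passed the test in no comparison with loess. Under median centring it was called higher than in NS in MAPC (0.42, adjusted p = 0.00210) and in ESC (0.45, adjusted p = 0.00142). Rps27a, which is made as a fusion with ubiquitin, had loess differences between 0.00 and 0.01, and its sample channel was saturated on 1 array. Under median centring it was higher than in NS by 0.42 in MAPC (adjusted p = 0.00597) and by 0.38 in ESC (adjusted p = 0.0109). A dimmer probe of Rps27a, saturated in neither dye, was called lower in MAPC than in ESC (-0.28, adjusted p = 0.0111).

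Of a chosen list of genes mutated in human Diamond-Blackfan anaemia, a failure of red cell production, 15 were measured. Of those, 12 were below saturation in the sample channel on all 6 arrays. Among the 12, 10 were lower and 0 higher in MAPC than in ESC with loess, with a median of -0.30, beside 33 lower of all 51 members below saturation and 22.1% of all tested genes. Under median centring 7 of the 12 were lower, and in the sample channel alone 4 were. Rps19, the gene most often mutated, stood at 0.15 and 0.12 in MAPC, against 0.19 and 0.28 in ESC. Its difference from ESC was -0.10 ± 0.10 (adjusted p = 0.493). Against NS, where the median of all 73 genes turned to 0.10 under median centring, 10 of the 12 were lower and 1 (Rpl15) was higher with loess, while 0 were lower and 2 higher under median centring, and 2 lower and 0 higher in the sample channel alone.

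Probes of the same gene did not always move alike. Of the 36 genes with more than 1 probe, 5 had probes called in opposite directions in some comparison. Among them were Rpl26 and Rplp0 in MAPC against NS, and Rpl3, Rpl29 and Rplp0 in ESC against NS. For Rplp0 an unsaturated probe stood at 0.16 and 0.12 in MAPC, 0.34 and 0.41 in ESC, and -0.06 and -0.12 in NS. It was called lower in MAPC than in ESC (-0.24, adjusted p = 0.0108) and higher in MAPC than in NS (0.23, adjusted p = 0.0121). Rpl29 had 7 probes, of which 4 were saturated in neither dye. Of these 4, MAPC minus NS was -0.58, -0.53 and -0.51 in 3, called lower, and 0.12 in the dimmest (adjusted p = 0.137). The value of 1 array was missing as an outlier for 2 of them.

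Genes that build the ribosome were higher in MAPC and in ESC than in NS under all 3 scalings. Of 53 measured genes of ribosome assembly and the nucleolus, 49 were higher and 0 lower in MAPC than in NS, and 51 were higher and 0 lower in ESC than in NS. Among all tested genes, 21.2% were higher and 22.6% lower in MAPC than in NS. In ESC against NS 19.8% were higher and 18.4% lower. The median differences of the assembly genes were 0.95 and 0.99. Under median centring they were 0.94 and 1.01, and in the sample channel alone 1.00 and 1.07. Between MAPC and ESC the assembly genes had a median of -0.13. There 23 were lower and 8 higher, where 22.1% of all tested genes were lower and 16.0% higher. Over the 21 alternatives, the assembly genes called higher numbered 44 to 49 in MAPC and 49 to 51 in ESC, each against NS. The 2 comparisons share the NS arrays.

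Npm3, a nucleolar histone chaperone, stood at 1.69 and 1.80 in MAPC, 1.98 and 2.08 in ESC, and -0.81 and -0.75 in NS. It was higher than in NS by 2.53 ± 0.06 in MAPC and by 2.81 ± 0.06 in ESC (adjusted p = 5.35e-08 and 7.13e-08). Utp4, a part of the small subunit processome, stood at 1.12 and 1.13 in MAPC, 1.11 and 1.17 in ESC, and -0.64 and -0.71 in NS. Both genes had NS arrays far below the others. Rrp1b and Wdr46, 2 nucleolar proteins, were lower in MAPC than in ESC by the widest margins of the list (-0.81 ± 0.07 and -0.79 ± 0.06), whereas Riok1, a kinase of small subunit maturation, and Nob1, the nuclease that finishes its RNA, were higher (0.38 ± 0.06 and 0.33 ± 0.06).

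Of 10 measured genes of RNA polymerase I and its factors, 7 were higher and 0 lower in MAPC than in NS, and 9 were higher and 0 lower in ESC than in NS. Among all tested genes, 21.2% were higher and 22.6% lower in the first comparison. In the second, 19.8% were higher and 18.4% lower. Under median centring and in the sample channel alone, 6 of the 10 were higher in MAPC and 8 in ESC, with 0 lower. Polr1b, its second largest subunit, stood at 1.69 and 1.54 in MAPC, 2.16 and 2.13 in ESC, and 0.58 and 0.48 in NS. Taf1c, of the promoter-binding factor SL1, stood at 2.33 and 2.37 in MAPC, 1.54 and 1.55 in ESC, and 0.66 and 0.65 in NS, and was higher in MAPC than in both. Ubtf and Ttf1, which bind ribosomal DNA, were lower in MAPC than in ESC (-0.63 ± 0.06 and -0.93 ± 0.16). Taf1a, another part of SL1, was higher in ESC than in NS (1.07 ± 0.06). Of 4 genes for 5S RNA transcription, 2 were higher and 1 lower in MAPC than in ESC, beside 16.0% and 22.1% of all tested genes. Gtf3a, the factor that binds the 5S gene, was the lower of these (-0.67 ± 0.06), at -0.04 and -0.01 in MAPC, 0.69 and 0.60 in ESC, and 0.16 and 0.17 in NS. In the sample channel alone its difference from ESC was -0.41 (adjusted p = 0.0955), which left 0 of the 4 lower.

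Of 30 measured initiation factors, 19 were higher and 4 lower in MAPC than in NS, and 19 were higher and 5 lower in ESC than in NS. Of all tested genes, 21.2% were higher and 22.6% lower in MAPC than in NS, and 19.8% were higher and 18.4% lower in ESC than in NS. In the sample channel alone 12 initiation factors were higher and 3 lower in MAPC than in NS. The 5 lower in ESC than in NS became 2 under median centring and 1 in the sample channel alone, and the 4 lower in MAPC became 2 under median centring. Between MAPC and ESC, 12 initiation factors were lower and 4 higher, beside 22.1% and 16.0% of all tested genes. In the sample channel alone 9 were lower and 3 higher. Eif6, which keeps the subunits apart until the large subunit is mature, stood at 1.72 and 1.65 in MAPC, 1.60 and 1.56 in ESC, and 0.52 and 0.38 in NS. Eif2s2, the beta subunit of the factor that brings the initiator tRNA, stood at 0.33 and 0.17 in MAPC, 1.21 and 1.29 in ESC, and -0.13 and -0.22 in NS, and was lower in MAPC than in ESC (-1.0 ± 0.07, adjusted p = 1.80e-05). Eif1, which guards start codon choice, was lower than in NS in MAPC (-0.62 ± 0.07) and in ESC (-0.55 ± 0.07).

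Of 10 elongation and termination factors, 5 were lower and 1 higher in MAPC than in ESC, 4 were lower and 2 higher in MAPC than in NS, and 4 were lower and 5 higher in ESC than in NS, with loess. Of all tested genes, 22.1% were lower and 16.0% higher in the first of these comparisons, 22.6% lower and 21.2% higher in the second, and 18.4% lower and 19.8% higher in the third. Under median centring the second turned to 2 lower and 4 higher (median 0.12, and -0.02 with loess), and the third to 2 lower and 5 higher. In the sample channel alone there were 2 lower and 0 higher, 2 lower and 2 higher, and 1 lower and 3 higher. Eef2k, the kinase that halts elongation, was lowest in MAPC (-0.82 ± 0.06 against ESC and -1.12 ± 0.06 against NS). Eef1e1, a partner of the tRNA synthetase complex, was highest there, at 1.28 and 1.33 in MAPC, 0.90 and 0.93 in ESC, and 0.38 and 0.37 in NS, though its call against ESC was lost in the sample channel alone (adjusted p = 0.194).

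Of 12 ribosome-associated factors, 6 were lower and 2 higher in MAPC than in ESC, 2 were lower and 5 higher in MAPC than in NS, and 9 were higher and 0 lower in ESC than in NS, with loess and beside the same shares of all tested genes. Median centring gave 6 lower and 1 higher in MAPC against ESC, 0 lower and 8 higher in MAPC against NS, and 0 lower and 11 higher in ESC against NS. The sample channel alone gave 6 lower and 0 higher, 0 lower and 5 higher, and 0 lower and 8 higher. Ltv1, an assembly factor of the small subunit, stood at 1.59 and 1.64 in MAPC, 1.43 and 1.46 in ESC, and 0.36 and 0.36 in NS. Rack1, a scaffold on the small subunit, was lower in MAPC than in NS with loess (-0.30 ± 0.08), and its difference was 0.05 under median centring.

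Among 19 regulators of growth and of ribosomal protein messages, Mycn lay farthest from NS in both MAPC (2.34) and ESC (2.44), and the ribosomal S6 kinase gene Rps6ka1 came next (2.21 and 2.03). Between MAPC and ESC the widest difference was that of Mycl (-1.39). Mycn stood at 4.11 and 4.15 in MAPC, 4.22 and 4.26 in ESC, and 1.85 and 1.73 in NS. Myc itself stood at -0.81 and -0.67 in MAPC, -0.24 and 0.20 in ESC, and 0.75 and 0.82 in NS, and was lower in MAPC than in ESC (-0.72 ± 0.13, adjusted p = 0.00319) and than in NS (-1.53 ± 0.13, adjusted p = 3.67e-05). Against NS, MAPC and ESC were higher in Mycn and lower in Myc. Fau, a fusion of a ubiquitin-like protein with a small subunit protein that the symbol rule leaves out, was lower in MAPC than in NS with loess (-0.27 ± 0.08, adjusted p = 0.0297), and its difference was 0.10 under median centring.

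**Figure D4:**
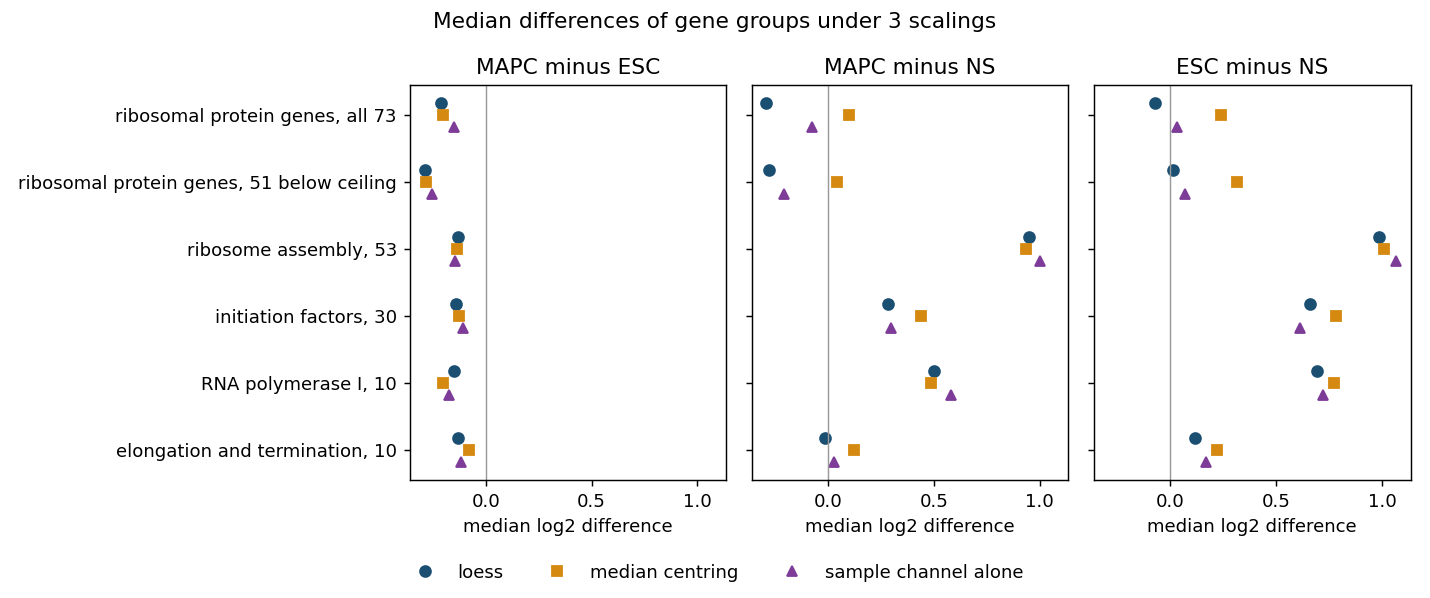
Median log2 difference (x axis) in the 3 comparisons for the ribosomal protein genes (all 73, and the 51 below the ceiling) and 4 related groups (y axis) under loess, median centring and the sample channel alone. The ribosome assembly genes lie between 0.94 and 1.07 above NS under all 3, while the median of the 73 ribosomal protein genes turned from -0.29 with loess to 0.10 under median centring in MAPC minus NS, and from -0.07 to 0.24 in ESC minus NS (0.03 in the sample channel alone).

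The start regions of the ribosomal protein genes share sequence that the symbol rule did not use. RefSeq windows of 300 bases (250 before the start and 50 after it, GRCm38.p6) were given for 51 of the 67 subunit genes. The motif CCGGAAG, a core that ETS factors bind, was found on either strand in 45.1% of these windows, against 9.12% of 27025 gene windows. The pyrimidine run CTTTCC was found in 51.0%, against 26.3% of all windows, and TATAAA in 9.80%, against 14.2%. The Rpl38 stretch printed above holds both of the first 2. A match describes these letters in the window and no binding.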

How the data were processed

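RNA of MAPC, ESC and NS was measured on 6 arrays. The deposited scanner files hold each spot's mean and background intensity in both dyes, written by Agilent's Feature Extraction software according to the file headers, and a processed intensity and log10 ratio (red, the reference, over green, the sample) that the authors' software had normalized between the dyes. The deposited series matrix holds log10 values with column medians of 2.95 to 2.97. The sources used here do not give how they were made. For 90.1% of 39546 spots above its floor it equalled the sample-to-reference log10 ratio plus a spot constant that varied by less than 0.002 among the 6 arrays. For those spots its direction is sample over reference. Its centring, and what was done at the remaining spots, are unknown. It served as an alternative. Columns left without a sample numbered 0.

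Here, intensities were corrected with normexp (offset 50) and normalized by loess within arrays (limma 3.58.1, R 4.3.3). Control and outlier spots were left out, and spots of a probe were averaged. The values tested are log2 ratios, sample over reference. A gene's brightest probe was used, and its sample signal had to be marked well above background on each array of 1 group or more. Names came from RefSeq accessions: 15294 probes were named by accession, 23 by symbol and 112 through an older one. The other 25577 probes kept their accession as a name in the tests. A single limma fit of all 6 arrays (lmFit and eBayes, two-sided, 3 residual degrees of freedom) gave Benjamini-Hochberg adjusted p-values over all tested genes (between 35770 and 35779 in a comparison), with a threshold of 0.05. Errors are moderated standard errors (SE). Tables and figures were made with Python 3.11.15, pandas 2.3.3 and numpy 2.4.6. The fit was tested on simulated data.

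A bound for a saturated gene sets group means of the sample channel after loess and Aquantile against each other. The day of image extraction in the file headers coincides with the replicate number on all 6 arrays, and the deviations of same-numbered arrays from their group means correlated at r = 0.10 (MAPC and ESC), 0.16 (MAPC and NS) and 0.21 (ESC and NS) across genes. The numbers were therefore taken to pair the arrays in the medians between same-numbered arrays and in the alternative with a replicate block. The main fit and its adjusted p-values used no pairing. Arrays have no depth, so their number limits the precision. In all, 24 alternatives were tried. The series matrix, each probe by itself, and the brightest probe below saturation under 3 scalings were added after seeing the data.

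Named were the 5 highest and 5 lowest members called in each comparison, members saturated in a group, paralogs, genes by role, and the highest and lowest called genes of 8 pathway lists. Rpl7 was named after its values were seen. Some genes are not reported here. The members, lists and rules were chosen with earlier results of these data known.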

Additional observations from a re-analysis of the deposited data

How the results depend on the processing

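None of the 22 alternatives run for MAPC against ESC turned the lower median of the 73 genes. It was -0.31 with the processed signals, with the series matrix and without saturated spots, -0.29 with the brightest probe below saturation, -0.28 and -0.27 for those probes under median centring and in the sample channel alone, and -0.15 in the sample channel alone. The 34 genes called lower numbered 18 in the sample channel alone (22 with probes below saturation), 15 without saturated spots (fewer genes) and 59 over all 131 probes. The 3 called higher numbered 0 with the processed signals, with the series matrix and in the sample channel alone, also with probes below saturation, and 1 without background subtraction, under median centring (also with probes below saturation) and in a fit of only 2 groups. Against NS, the MAPC median was -0.34 without background subtraction, -0.39 with the processed signals and with the series matrix, -0.16 without saturated spots, -0.24 with the average of probes, -0.25 with the brightest probe below saturation, -0.075 in the sample channel alone (-0.19 with probes below saturation), and 0.10 under median centring (0.073 with probes below saturation). Median centring also turned the large subunit (0.093, and 0.054 with probes below saturation), the small subunit (0.10 and 0.061) and the 51 genes below saturation (0.045). Lower and higher calls were 6 and 12 under median centring (6 and 17 with probes below saturation). Lower calls were 11 in the sample channel alone (13), 12 without saturated spots and 78 over all probes, and higher calls were 4 with the processed signals and 11 over all probes. Fau turned to 0.10 under median centring and 0.13 with the average of probes, Naca to 0.093, Rack1 to 0.052 and, in the sample channel alone, Gtf3a to 0.0013. Between ESC and NS the median was 0.24 under median centring (large 0.24, small 0.22), 0.033 in the sample channel alone (0.024 and 0.020), 0.11 without saturated spots (large 0.10), -0.019 with the average of probes (large 0.016) and 0.019 with the brightest probe below saturation (large 0.073). For probes below saturation it was 0.33 under median centring (large 0.35, small 0.30) and 0.070 in the sample channel alone (0.088 and 0.036). Lower calls numbered 2 under median centring, also with probes below saturation, 1 in the sample channel alone, also with those probes, 3 without saturated spots, 4 with the brightest probe below saturation and 34 over all probes, and higher calls 28, 39 with probes below saturation, and 17 over all probes. The differences of Rpl7a, Rps29 and Rpsa turned to 0.026 under median centring. With probes below saturation, Rpl7a was 0.14, 0.40 under median centring and 0.0022 in the sample channel alone, and Rpsa 0.010 under median centring. Leaving out 1 array gave 24 to 35 lower and 0 to 2 higher genes in MAPC against ESC (median -0.25 to -0.14), 21 to 40 and 4 to 6 in MAPC against NS (-0.31 to -0.18), and 2 to 18 and 4 to 9 in ESC against NS (-0.12 to -0.018). The large subunit median in ESC against NS then ran from -0.10 to 0.00076, the highest without NS replicate 2. With the replicate number as a block, which equals a block on the extraction day, 37, 49 and 21 genes were lower and 2, 7 and 8 higher in the 3 comparisons. The block took the call of Rpl23 and gave Rpl37a one in ESC against NS. Except where fewer genes or more probes were tested, the cause was not tested. Precision is limited by 2 arrays a group, by saturation of the reference for 48 genes, and by dyes that were not swapped.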
